A study of Rattus norvegicus with 18 samples.

Results

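The 73 genes described here encode proteins of the mitochondrial ribosome, the particle that translates the messages of mitochondrial DNA. They were chosen by name, as every single gene symbol of the array annotation that starts with Mrpl or Mrps and a number, among 14217 genes with a single symbol. Of the 73, 48 belong to the large subunit and 25 to the small subunit, with Mrps30 and Mrps18a placed in the large subunit in spite of their names. A counterpart in bacterial ribosomes is known for 44 of them, and 29 are found in mitochondria only. Where the array carries more than 1 probe set for a gene, the brightest on average was used.

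Mitochondrial ribosomal proteins are made in the cytosol from nuclear genes, imported, and assembled around ribosomal RNAs that mitochondrial DNA encodes. Their only products are core subunits of the respiratory chain and of ATP synthase, so the particle ties nuclear gene expression to oxidative phosphorylation. Kidney proximal tubule cells, the target of aristolochic acid, rely heavily on mitochondrial respiration. Aristolochic acid, a nitrophenanthrene carcinogen from Aristolochia plants, forms bulky DNA adducts after it is reduced in the cell.

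The cells were NRK-52E, an established rat kidney line described as proximal tubular and, per its labels, of Osborne-Mendel strain. Confluent cultures were given 1.65 µM aristolochic acid (AA) dissolved in 0.1% DMSO, the concentration the labels give as the IC10 at 72 h, or 0.1% DMSO alone. RNA was taken at 6, 24 or 72 h, which gave 6 groups of 3 arrays, named below by treatment and time. The labels call the 3 cultures of a group biological replicates without saying whether they shared a plate or day; the p-values thus cover the spread of these cultures, which may be technical. Values are log2 expression from GCRMA; ± is the SD of 3 arrays for a level and the standard error for a log2 fold change.

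Replicates of a group correlated with r between 0.996 and 0.999 over all probe sets, and array medians lay between 4.03 and 4.20. Cdkn1a, the cell-cycle inhibitor that p53 induces, was 0.68, 1.12 and 3.71 higher on the log2 scale in AA than in DMSO at 6, 24 and 72 h (limma adjusted p = 0.000182, 1.32e-06 and 1.56e-16), with 3 arrays a group. Of 10 proximal tubule markers 2 had a mean of log2 4 or more over the 18 arrays, and both moved between groups. Aqp1, a water channel, had a mean of 2.08 in DMSO 6 h, 8.43 in DMSO 72 h and 6.11 in AA 72 h, and Ggt1, a brush border enzyme, had 5.86 in DMSO 6 h and 7.13 in AA 6 h. The other 8, among them the endocytic receptors Lrp2 and Cubn, had means of 1.95 to 2.62, near the floor of the method. Log2 4 was also reached by 3 of 9 epithelial markers (Krt8, Tjp1 and Ocln), 3 of 7 fibroblast markers (Col1a1, Col1a2 and Col3a1, with Pdgfra, Thy1, Dcn and Lum at 1.87 to 2.22), 1 of 5 immune markers (Cd14) and 1 of 4 endothelial markers (Tek). Between groups the mean of a list ranged over 2.48 to 3.0 for proximal tubule, 5.20 to 5.37 for epithelium, 5.74 to 6.46 for fibroblasts, 4.37 to 4.73 for immune cells and 2.68 to 3.2 for endothelium, and their part in the results was not tested. The beta-actin signal at the 3' end exceeded that at the 5' end by 1.85 to 2.16 in AA 72 h, above the 1.29 to 1.45 of DMSO 72 h and the 0.98 to 1.27 of both treatments at 6 and 24 h. In bulk RNA, fewer cells of a kind and less RNA per cell cannot be told apart.

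With the probe set used, every array of all 73 members was at log2 4 or more and 69 members had a mean of log2 8 or more. Single values ran from 4.82 for Mrpl38 to 13.19 for Mrpl13. Where a gene had several probe sets the brightest was taken, so these levels partly follow from that choice. Of 24 further probe sets, on 18 members, 11 had a mean under log2 4. The median SD between replicates was 0.100 for the members and 0.117 for the 9015 genes tested.

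**Figure D1:**
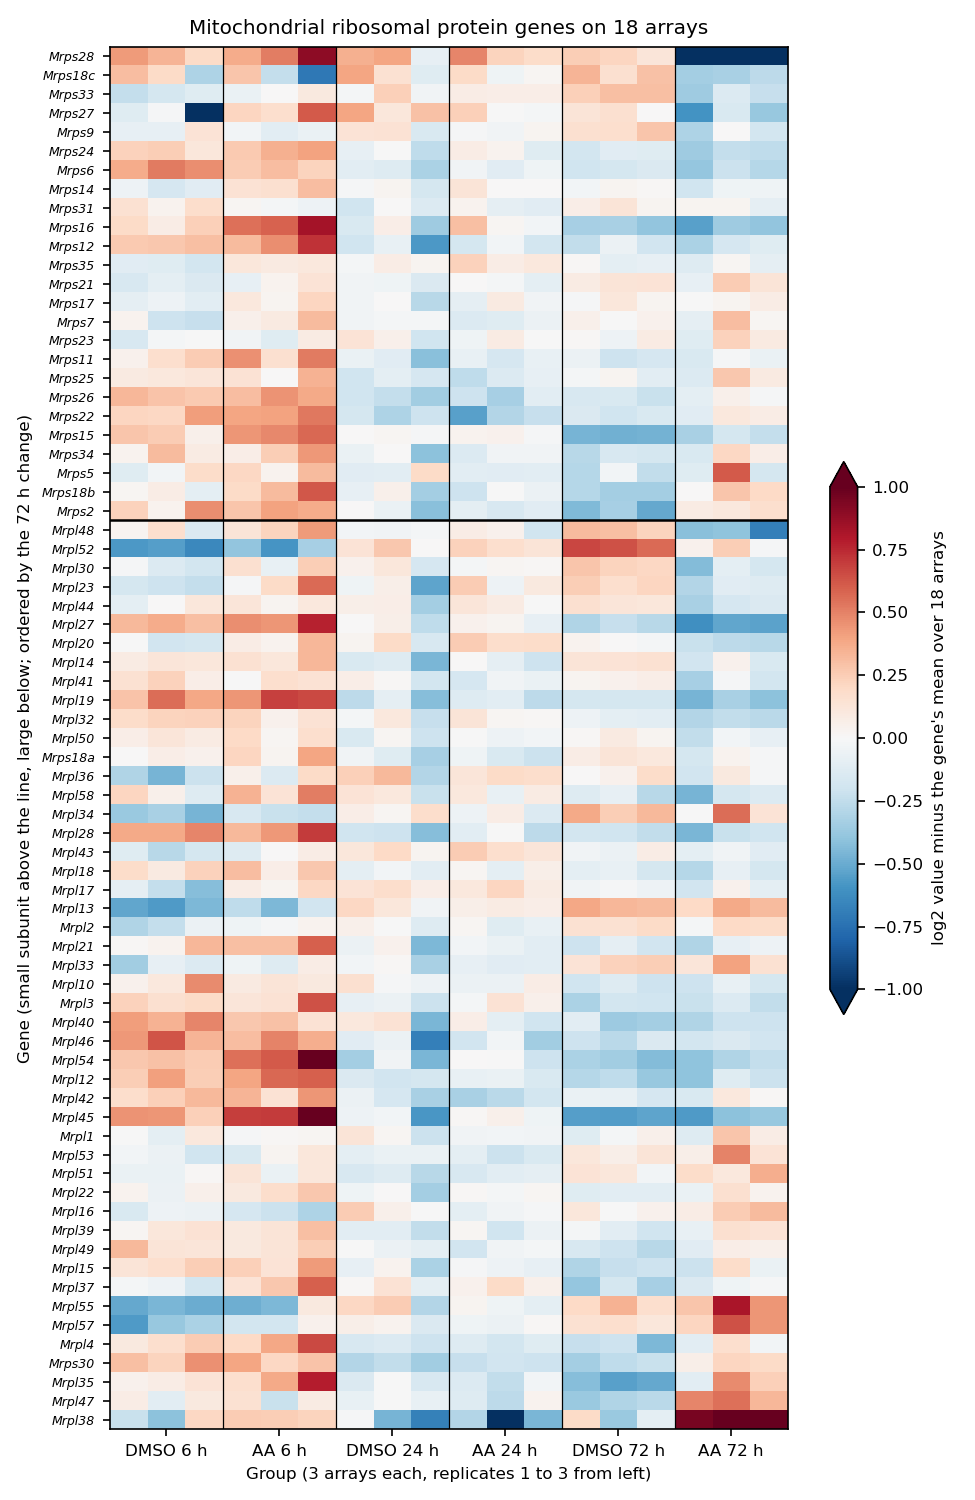
Log2 values of the 73 members on 18 arrays, each shown as its difference from the gene's mean over all arrays (colour, limited to 1 either way). Arrays are in columns by group and genes in rows by subunit, ordered by the 72 h change; Mrps28 stands out at the top and Mrpl38 and Mrpl47 at the bottom, each in the 3 AA 72 h arrays.

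The stretches upstream of 6 members show what these promoters look like, chosen because the genes are among those with the largest changes at 6 or 72 h. Each is the 150 bases before the annotated start from RefSeq, build GRCr8, on the gene's strand, with motif matches in capitals. Of the 73 members, 59 matched the promoter table. The motifs searched, on both strands, were GCGCANGCG for NRF1, CCGGAAG for ETS factors such as GABP, AAGATGGCG for YY1 and CACGTG for E-box factors. NRF1 and GABP are textbook activators of nuclear genes for mitochondrial proteins.
Mrps27 (chr2:32474054-32474203, plus strand): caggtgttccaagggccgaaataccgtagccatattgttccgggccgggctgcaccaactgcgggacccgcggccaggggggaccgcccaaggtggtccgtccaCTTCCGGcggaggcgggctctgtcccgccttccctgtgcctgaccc
Mrps16 (chr15:3967659-3967808, plus strand): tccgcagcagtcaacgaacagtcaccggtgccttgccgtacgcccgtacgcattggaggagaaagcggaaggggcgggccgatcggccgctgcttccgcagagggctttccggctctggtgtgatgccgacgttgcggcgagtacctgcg
Mrpl47 (chr2:117447362-117447511, minus strand): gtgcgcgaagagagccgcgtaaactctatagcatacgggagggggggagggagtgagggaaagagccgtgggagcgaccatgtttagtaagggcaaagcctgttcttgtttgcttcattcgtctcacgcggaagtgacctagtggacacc
Mrps2 (chr3:32200927-32201076, plus strand): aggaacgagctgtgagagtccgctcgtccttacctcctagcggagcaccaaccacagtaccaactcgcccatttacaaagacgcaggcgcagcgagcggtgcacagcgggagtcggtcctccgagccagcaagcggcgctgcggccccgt
Mrpl48 (chr1:164351377-164351526, minus strand): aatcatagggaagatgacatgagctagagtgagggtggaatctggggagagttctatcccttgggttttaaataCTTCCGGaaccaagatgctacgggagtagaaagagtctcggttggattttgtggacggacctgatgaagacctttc
Mrps18c (chr14:9122907-9123056, minus strand): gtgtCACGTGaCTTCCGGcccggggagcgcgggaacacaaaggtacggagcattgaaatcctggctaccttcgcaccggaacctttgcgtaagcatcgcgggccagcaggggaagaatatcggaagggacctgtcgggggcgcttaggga

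The capitals mark the ETS motif, read on the opposite strand as CTTCCGG, in Mrps27, Mrpl48 and Mrps18c, and an E-box in Mrps18c next to it. The stretches of Mrps16, Mrpl47 and Mrps2 hold none of the 4. Over the whole window of 250 bases before to 50 after the start, 31 of 59 members (52.5%) held at least 1 of the 4 motifs, against 23.2% of 21851 coding promoters. The ETS motif was in 19 members (32.2%, against 10.7% of all), NRF1 in 10 (16.9% against 7.62%), YY1 in 8 (13.6% against 2.07%) and the E-box in 6 (10.2% against 7.02%). A match is a description of letters and does not show binding, and motifs that overlap were each counted.

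At 6 h many members were slightly higher in AA. The log2 fold change was above 0 for 60 of 73, and 17 members were higher and 1 lower at an adjusted p under 0.05. Of all 9015 genes, 51.1% were above 0, 12.1% were called higher and 12.4% called lower, so 23.3% of the members were called higher against 12.1% of all genes, and 1.37% called lower. The median log2 fold change was 0.17 for the members and 0.01 for all genes. With array medians aligned the medians were 0.25 for the members and 0.09 for all genes, and with quantiles equalised 0.19 and 0.03. No member reached 2-fold. By array, 26 members had all 3 AA values above all 3 DMSO values (background 18.9%) and 4 had them all below (background 17.6%).

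The 6 h count rests heavily on 1 array. The mean deviation of the members from their own means over 18 arrays was 0.154, 0.140 and 0.312 in AA 6 h and 0.039 to 0.044 in DMSO 6 h, so AA 6 h replicate 3 was the highest of the 18 and the other AA 6 h arrays were still above all 3 DMSO 6 h arrays. The beta-actin 3' minus 5' difference of AA 6 h replicate 3 was 0.978, the lowest of the 18 arrays, against 1.26 and 1.27 in the other AA 6 h arrays and 1.14 to 1.17 in DMSO 6 h. Its GAPDH difference was -0.305, against -0.336 to -0.229 in DMSO 6 h, and the part of RNA quality was not tested. Without AA 6 h replicate 3 the members' median was 0.11, and 4 of 73 members were called higher and 0 lower. Over all 9015 genes the count called higher then went from 1091 to 422, and 478 were called lower. Without DMSO 6 h replicate 2 or 3 there were 10 and 9 members higher, against 715 and 687 of all genes. With the spread taken from the 6 h arrays alone 2 members and 293 of all genes were called higher. With array medians aligned these counts were 28 and 1706. Without AA 6 h replicate 3, and with the 6 h arrays alone, the members' share called higher was close to that of all genes.

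**Figure D2:**
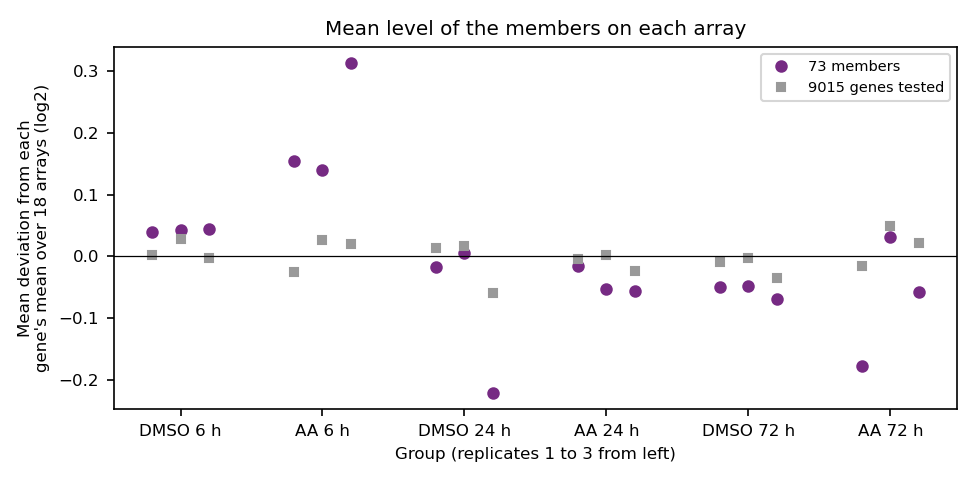
Mean deviation of the 73 members (circles) and of all 9015 genes tested (squares) from each gene's mean over 18 arrays, on the log2 scale, for every array. The 3 AA 6 h arrays hold the highest circles, with replicate 3 at 0.312, and DMSO 24 h replicate 3 the lowest at -0.221.

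Of the 25 small subunit genes 7 rose at 6 h (background 12.1%) and 1 fell (background 12.4%). Mrps16, which encodes the counterpart of a bacterial small subunit protein, read 10.18, 10.06 and 10.23 in DMSO 6 h and 10.54, 10.57 and 10.82 in AA 6 h. All AA arrays lay above all DMSO arrays, and the log2 fold change was 0.49 ± 0.11 (adjusted p = 0.00462). This call held under all 26 alternative settings, with values from 0.40 to 0.57. Mrps27, a pentatricopeptide repeat protein of the small subunit that binds RNA, read 7.28, 7.39 and 6.36 in DMSO 6 h and 7.62, 7.57 and 8.01 in AA 6 h. The groups did not overlap and DMSO 6 h replicate 3 was the lowest array, with a log2 fold change of 0.73 ± 0.20 (adjusted p = 0.0150). A second probe set of Mrps27, at a mean of 5.35, changed by -0.20, and another, at 3.77, by 0.51, so the probe sets disagree; the call was lost without DMSO 6 h replicate 3 and without AA 6 h replicate 3. Mrps6, a counterpart of bacterial S6, was the 1 member called lower, at 11.88, 12.03 and 11.98 in DMSO and 11.76, 11.82 and 11.73 in AA. Its fall was 0.19 with a standard error of 0.07 (log2 fold change -0.19, adjusted p = 0.0462), and the call was lost under 17 of 26 alternatives. Mrps14, Mrps15, Mrps18b, Mrps7 and Mrps35 were the other small subunit genes called higher, at 0.24 to 0.38.

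Of the 48 large subunit genes 10 rose at 6 h (background 12.1%) and 0 fell (background 12.4%). Mrpl54, a protein found in mitochondria only, read 10.93, 10.95 and 10.91 in DMSO 6 h and 11.21, 11.28 and 11.76 in AA 6 h. All AA arrays lay above all DMSO arrays, with a log2 fold change of 0.48 ± 0.12 (adjusted p = 0.00780). Mrpl45, which sits at the exit tunnel and anchors the ribosome to the inner membrane, read 11.11, 11.10 and 10.89 in DMSO and 11.35, 11.35 and 11.76 in AA. The change was 0.46 ± 0.13 (adjusted p = 0.0138). Mrpl23, also an exit tunnel protein, read 9.18, 9.15 and 9.12 in DMSO and 9.34, 9.54 and 9.92 in AA, a change of 0.46 ± 0.14 (adjusted p = 0.0239). Mrpl37, another protein particular to mitochondria, read 9.65, 9.63 and 9.50 in DMSO and 9.81, 9.95 and 10.27 in AA, a change of 0.42 ± 0.11 (adjusted p = 0.00887). In each of these 4 genes the groups did not overlap and AA 6 h replicate 3 was the highest array; without it all 4 calls were lost. The remaining 6 called large subunit genes, Mrpl36, Mrpl17, Mrpl57, Mrpl20, Mrpl12 and Mrpl13, rose by 0.21 to 0.36. Mrpl12, the stalk protein that also binds mitochondrial RNA polymerase, rose by 0.22 ± 0.08 (adjusted p = 0.0475), a call lost under 17 of 26 alternatives.

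At 24 h no member passed the test. With limma 0 of 73 members were called higher (background 1.81%) and 0 lower (background 0.277%), and 2 had an unadjusted p under 0.05. The median log2 fold change was 0.04 (-0.03 without DMSO 24 h replicate 3) and single values ran from -0.31 to 0.27. By array, 2 members lay wholly above DMSO (background 9.04%) and 3 wholly below (background 10.4%). The AA effect at 24 h minus that at 6 h was below 0 for 57 of 73 members, with a median of -0.13 against -0.01 for all genes. That difference was called for 0 members in either direction (background 1.45% higher and 0.976% lower), and 10 had an unadjusted p under 0.05, so a loss of the 6 h rise by 24 h is not shown for any single member. Mrps27 had the largest such difference, at -0.92 ± 0.29 (adjusted p = 0.0871).

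At 72 h single members moved in both directions and the median of the set lay near 0. Of 73 members 10 were higher and 13 lower in AA, against 27.4% and 19.8% of all genes. Called either way were 31.5% of the members and 47.2% of all genes. The median log2 fold change was 0.02 (-0.01 with quantiles equalised) for the members and 0.05 for all genes, and the median size of the change was 0.157 against 0.265. By array, 15 members lay wholly above DMSO (background 34.4%) and 22 wholly below (background 25.2%). Without AA 72 h replicate 2 there were 6 higher, and over all genes this count went from 2472 to 2029. Without DMSO 72 h replicate 1 there were 8 lower, and over all genes the count went from 1785 to 1513. The higher 3' to 5' ratio of the AA 72 h arrays, given above, moves with all these changes, and its part was not tested.

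**Figure D3:**
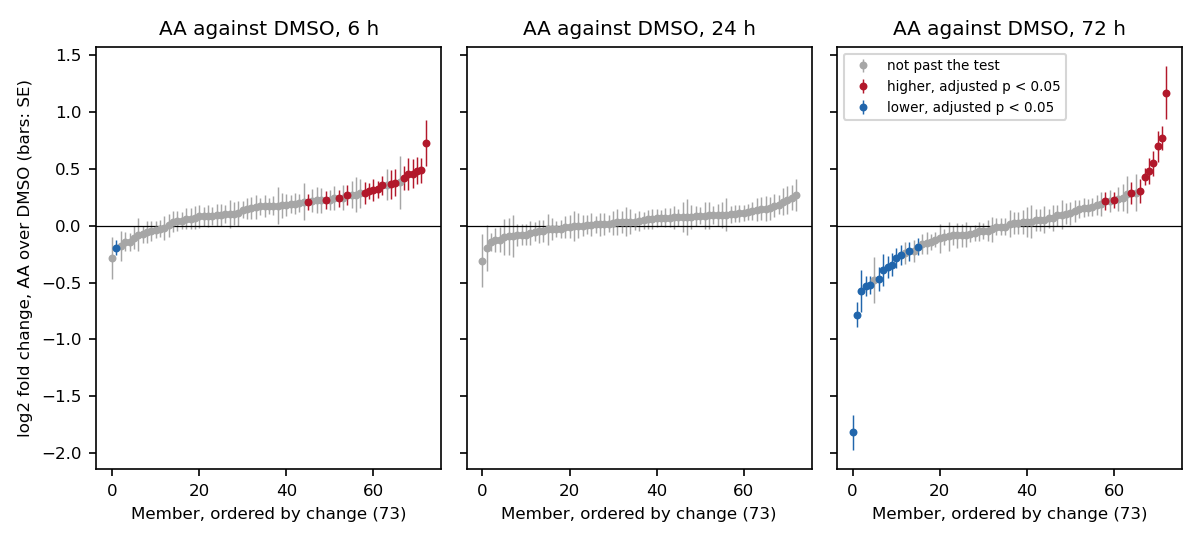
Log2 fold changes of the 73 members, AA over DMSO, at 6, 24 and 72 h, each panel ordered by size, with standard errors as bars and 3 arrays a group. At 6 h most points lie a little above 0, at 24 h none passes the test, and at 72 h Mrps28 at -1.82 and Mrpl38 at 1.17 are the ends of the range.

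Among the 25 small subunit genes at 72 h, 3 rose (background 27.4%) and 4 fell (background 19.8%). Mrps28, the mitochondrial counterpart of bacterial S1, had the largest change of all members. It read 8.13, 8.10 and 8.0 in DMSO 72 h and 6.44, 6.01 and 6.34 in AA 72 h. The groups did not overlap, and the AA 72 h values were the lowest 3 of the 18 arrays; the other groups had means of 8.08 to 8.47. The log2 fold change was -1.82 ± 0.15 (adjusted p = 1.09e-08) and stayed between -1.90 and -1.69 under all 26 alternatives. Mrps33, a protein found in mitochondria only, read 11.52, 11.58 and 11.59 in DMSO 72 h and 10.93, 11.15 and 11.05 in AA 72 h. All AA arrays lay below all DMSO arrays, which had read 11.05, 11.11 and 11.16 at 6 h. Its change was -0.52 ± 0.08 (adjusted p = 1.76e-05). Mrps9, a counterpart of bacterial S9, fell by 0.36 (standard error 0.10, adjusted p = 0.00491), and its second probe set changed by -0.55. Mrps2, the counterpart of bacterial S2, read 8.91, 9.02 and 8.84 in DMSO 72 h and 9.44, 9.45 and 9.52 in AA 72 h. Its groups did not overlap, with a log2 fold change of 0.55 ± 0.11 (adjusted p = 0.000460). Averaged with 2 dim probe sets of the same gene the change was 0.20 and not called. Mrps15 rose by 0.23 ± 0.07 (adjusted p = 0.0140).

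Of the 3 paralogs of bacterial S18, Mrps18b rose, Mrps18c fell and Mrps18a did not pass the test at 72 h. Mrps18b read 9.19, 9.13 and 9.13 in DMSO 72 h and 9.48, 9.75 and 9.67 in AA 72 h, all above DMSO, a change of 0.48 ± 0.12 (adjusted p = 0.00197). Mrps18c read 10.87, 10.69 and 10.82 in DMSO 72 h and 10.19, 10.20 and 10.27 in AA 72 h, all below DMSO, a change of -0.57 ± 0.18 (adjusted p = 0.0154). Mrps18a, whose protein sits in the large subunit, changed by -0.15 ± 0.10 (adjusted p = 0.208). At 6 h Mrps18b was also higher, at 0.38 ± 0.12 (adjusted p = 0.0229), while Mrps18a at 0.17 (adjusted p = 0.213) and Mrps18c at -0.29 (adjusted p = 0.262) were not called. The 6 h call of Mrps18b was lost without AA 6 h replicate 3 (then 0.26) and without DMSO 6 h replicate 3. It was also lost with the spread taken from the 6 h arrays alone. The Mrps18c call at 72 h was lost without DMSO 72 h replicate 1 (and with the mean of its 3 probe sets, of which 2 were dim), and differences between paralogs were not tested.

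Among the 48 large subunit genes 7 rose (background 27.4%) and 9 fell (background 19.8%) at 72 h. Mrpl38, particular to mitochondria and the member with the lowest mean level, read 6.34, 5.78 and 6.05 in DMSO 72 h and 7.09, 7.18 and 7.39 in AA 72 h. The groups did not overlap, and AA 72 h was also above every array of the other groups. The log2 fold change was 1.17 ± 0.23 (adjusted p = 0.000417). Mrpl47, the counterpart of bacterial L29, read 8.87, 8.94 and 8.98 in DMSO 72 h and 9.73, 9.79 and 9.58 in AA 72 h. Its change was 0.77 ± 0.11 (adjusted p = 6.89e-06), with AA 72 h again above all other groups. Mrpl35, a counterpart of bacterial L35, read 9.83, 9.70 and 9.74 in DMSO 72 h and 10.15, 10.73 and 10.49 in AA 72 h, a change of 0.70 ± 0.13 (adjusted p = 0.000288). The groups did not overlap, and DMSO arrays had read 10.29, 10.33 and 10.38 at 6 h. Mrps30, a large subunit protein also studied as a pro-apoptotic factor, read 10.81, 10.90 and 10.92 in DMSO 72 h and 11.21, 11.37 and 11.34 in AA 72 h, a change of 0.43 ± 0.07 (adjusted p = 7.67e-05). Each of these 4 calls held under all 26 alternatives. Mrpl4, Mrpl57 and Mrpl49 rose by 0.22 to 0.30.

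Mrpl48, found in mitochondria only, was the most reduced large subunit gene. It read 9.64, 9.62 and 9.55 in DMSO 72 h and 8.90, 8.92 and 8.64 in AA 72 h, without overlap, a change of -0.78 ± 0.11 (adjusted p = 6.73e-06). Mrpl52, also without a bacterial counterpart, read 10.92, 10.89 and 10.82 in DMSO 72 h and 10.30, 10.50 and 10.25 in AA 72 h. Its change was -0.53 ± 0.09 (adjusted p = 5.91e-05), but its second probe set, at a mean of 8.85, changed by -0.02, so the probe sets disagree. Mrpl30, a counterpart of bacterial L30, read 9.81, 9.75 and 9.73 in DMSO 72 h and 9.09, 9.43 and 9.35 in AA 72 h, a change of -0.47 ± 0.10 (adjusted p = 0.000909). Mrpl23, Mrpl44, Mrpl27, Mrpl20, Mrpl41 and Mrpl32 fell by smaller amounts, with log2 fold changes of -0.39 to -0.19. Mrpl41, found in mitochondria only, changed by -0.23 ± 0.08 (adjusted p = 0.0331), a call lost under 7 of 26 alternatives. Over the 18 members with further probe sets, 13 further probe sets had a mean of log2 4 or more, and 9 of these changed in the same direction at 72 h as the one used.

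**Figure D4:**
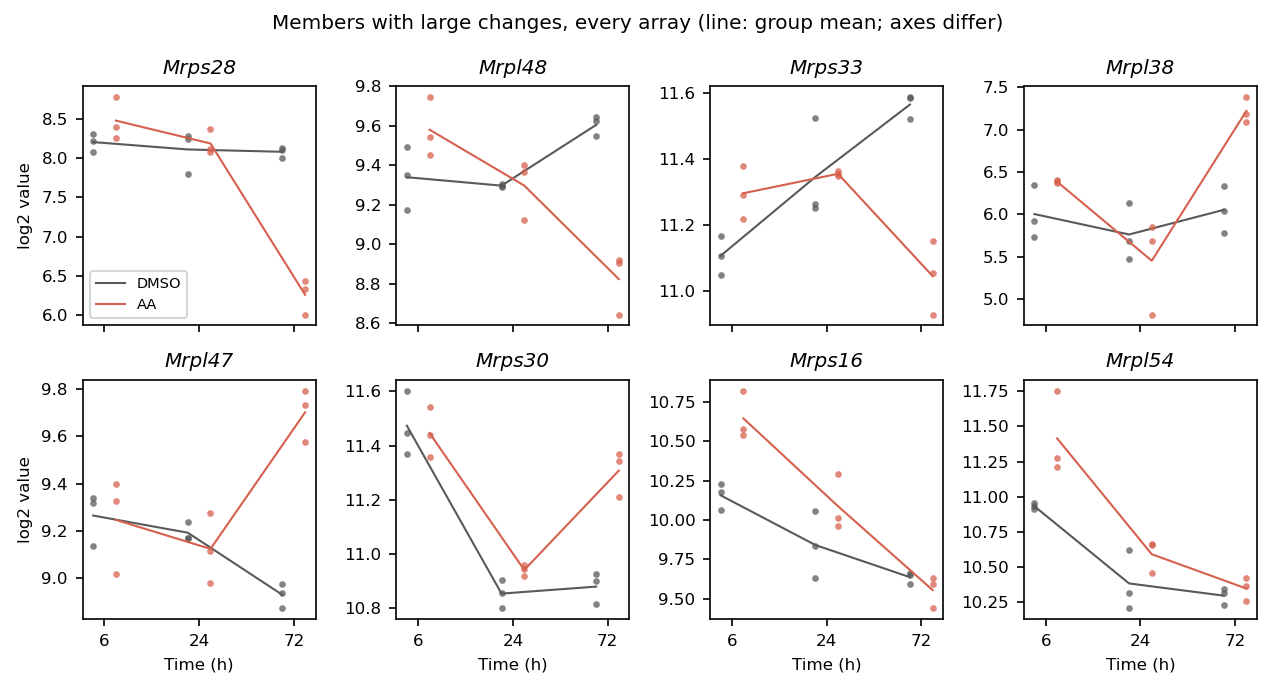
Log2 values of 8 members on every array by time, DMSO in grey and AA in red, with lines through group means and a separate vertical axis for each gene. Mrps28, Mrpl48 and Mrps33 are low and Mrpl38, Mrpl47 and Mrps30 high in the AA 72 h arrays, while Mrps16 and Mrpl54 are higher in AA at 6 h.

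Of 73 members 3, Mrpl57, Mrps15 and Mrps18b, were higher in AA at 6 h and at 72 h, which is 4.11% of members and 3.93% of all genes. Mrpl20 and Mrpl23 were higher at 6 h and lower at 72 h, 2.74% of members against 2.19% of all genes: Mrpl20 by 0.27 ± 0.09 and -0.26 ± 0.09 (adjusted p = 0.0279 and 0.0174), and Mrpl23 by 0.46 and -0.39. The other 12 members higher at 6 h were not called at 72 h (16.4%, against 5.99% of all genes), and 37 of 73 members were called at no time (50.7%, against 39.0% of all genes). Differences between these shares were not tested. The AA effect at 72 h minus that at 24 h was called higher for 7 members (background 18.7%) and lower for 11 (background 13.7%); without DMSO 24 h replicate 1 it was higher for 4, and with quantiles equalised it was higher for 5 and lower for 14. Mrps28 (-1.89 ± 0.22, adjusted p = 2.21e-06), Mrpl48 (-0.78 ± 0.15, adjusted p = 0.000599) and Mrpl23 (-0.66 ± 0.20, adjusted p = 0.0158) had the largest falls between these times. Mrpl38 (1.48 ± 0.33, adjusted p = 0.00211), Mrpl47 (0.84 ± 0.15, adjusted p = 0.000272) and Mrpl35 (0.73 ± 0.19, adjusted p = 0.00635) had the largest rises.

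Several members known from patients or from special roles did not pass the test. Mrps22 and Mrps34, small subunit proteins mutated in inherited mitochondrial disease, changed at 72 h by 0.19 ± 0.11 (adjusted p = 0.146) and 0.25 ± 0.12 (adjusted p = 0.102). Mrps12, a counterpart of bacterial S12 near the decoding site, changed by 0.22 ± 0.11 at 6 h (adjusted p = 0.148) and -0.03 ± 0.11 at 72 h (adjusted p = 0.825). Mrpl58, a peptidyl-tRNA hydrolase that rescues stalled ribosomes, changed by 0.29 ± 0.13 at 6 h (adjusted p = 0.106) and -0.10 ± 0.13 at 72 h (adjusted p = 0.561). Mrpl3, whose bacterial counterpart helps to start large subunit assembly, changed by 0.11 ± 0.10 and 0.03 ± 0.10 (adjusted p = 0.482 and 0.839). Mrpl13, with the highest mean of all members at 12.80, did pass at 6 h, with a rise of 0.21 ± 0.07 (adjusted p = 0.0349). This call was lost under 7 of 26 alternatives, among them without AA 6 h replicate 3. At 72 h Mrpl13 changed by -0.05 ± 0.07 (adjusted p = 0.608) and was not called. At 6 h Mrpl38 (0.38 ± 0.23, adjusted p = 0.241), Mrps28 (0.27 ± 0.15, adjusted p = 0.201), Mrps22 (0.16 ± 0.11, adjusted p = 0.273), Mrps34 (0.10 ± 0.12, adjusted p = 0.560), Mrps30 (-0.03 ± 0.07, adjusted p = 0.815) and Mrpl41 (-0.05 ± 0.08, adjusted p = 0.714) did not pass either. The 50 members not called at 72 h ran from -0.47 for Mrps27 to 0.29 for Mrps5.

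The length of each gene on the genome, from RefSeq GRCr8, was set beside the changes at 72 h. The members are short genes, with a median span of 6.5 kb against 24.2 kb for the 9010 tested genes with a span. Mrps28 is the longest at 131 kb, followed by Mrps27 at 68.6 kb, Mrpl48 at 61.2 kb, Mrpl1 at 59.1 kb, Mrps9 at 58.8 kb, Mrps6 at 55.8 kb and Mrps35 at 30.7 kb. Of these 7 members of 30 kb or more, a limit set after the values were seen, 3 were lower (Mrps28, Mrpl48 and Mrps9) and 0 higher, with a median log2 fold change of -0.36. Of the 66 shorter members 10 were lower and 10 higher, with a median of 0.03. Of all genes tested, of any span, 19.8% were called lower and 27.4% higher. Calls over all genes were not counted by span, so the split of the members has no matching background. Over all tested genes the median was -0.05 for genes of 30 kb or more and 0.12 for shorter ones. Across genes, which are not independent replicates, Spearman's rho between span and the 72 h change was -0.068 over the 73 members and -0.263 over all 9010 genes.

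**Figure D5:**
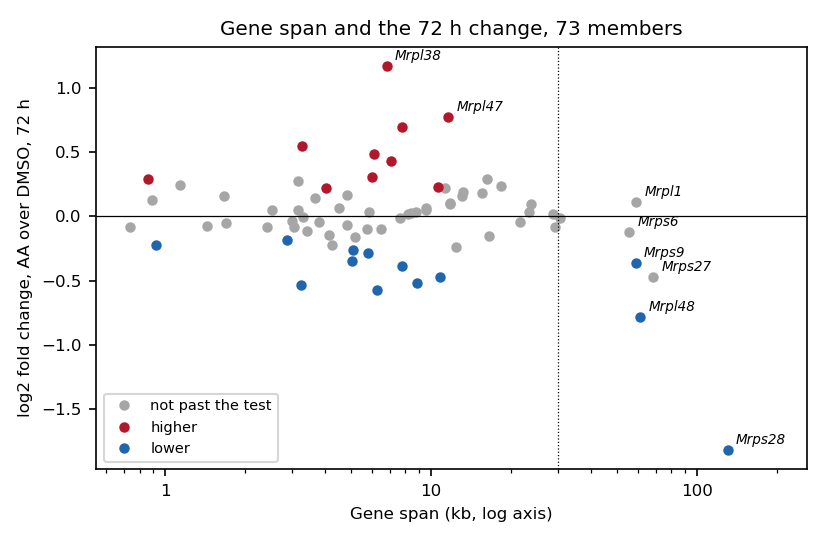
Gene span in kb (log axis) against the log2 fold change of AA over DMSO at 72 h for the 73 members, coloured by the test, with a dotted line at 30 kb. Right of the line, which was set after the values were seen, lie 3 members called lower and 0 called higher, with Mrps28 at 131 kb and -1.82. Left of it lie 10 of each. Of all genes tested, of any span, 19.8% were called lower and 27.4% higher.

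Many members share a start region with another gene. Of the 59 members in the promoter table, 17 (28.8%) had a protein-coding gene on the other strand starting head to head within 1000 bases, against 6.86% of all coding genes. Mrpl46 and Mrps11 are such a pair, with starts 234 bases apart, and neither was called at 6, 24 or 72 h. Among the 14 members whose neighbour was tested, 1 pair had both genes called at 72 h: Mrpl47 at 0.77 and Ndufb5, a complex I subunit that starts 244 bases away, at -0.26 ± 0.07 (adjusted p = 0.00417), in opposite directions. Mrps18b rose by 0.38 at 6 h while Ppp1r10, a phosphatase regulator 588 bases away, rose by 1.14 (adjusted p = 0.00203). The other members called higher at 6 h with a tested neighbour were Mrps27 and Mrps7. Their neighbours Ptcd2 at -0.17 (adjusted p = 0.462) and Gga3 at 0.05 (adjusted p = 0.888) were not called. Pnpla7 was called lower at 6 h, at -0.56 (adjusted p = 0.0305), beside Mrpl41, which was not called. The 19 members with an ETS motif included 6 called higher at 6 h and, at 72 h, 3 called higher and 7 lower; the 40 without it included 9 higher at 6 h and 5 higher and 5 lower at 72 h. With an NRF1 motif, 4 of 10 members were higher at 6 h, and 2 higher and 3 lower at 72 h. The 49 without it had 11, 6 and 9. With a YY1 motif, 3 of 8 were higher at 6 h, and 1 higher and 0 lower at 72 h. The 51 without it had 12, 7 and 12. With an E-box these counts were 3, 2 and 2 of 6, against 12, 6 and 10 of 53 without. Of all genes 12.1% were called higher at 6 h, and 27.4% higher and 19.8% lower at 72 h. The splits by motif were not tested.

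In DMSO cultures the members moved with time in culture as well. From 6 to 24 h, 30 members fell (background 30.5%) and 11 rose (background 28.3%), so 56.2% of members and 58.7% of all genes were called. The median was -0.18 against -0.01 for all genes, and -0.11 without DMSO 24 h replicate 3, in which the members' mean deviation was -0.221 against -0.017 and 0.005 in the other DMSO 24 h arrays. Mrpl46, found in mitochondria only, read 7.88, 8.08 and 7.79 at 6 h and 7.34, 7.39 and 6.77 at 24 h, a change of -0.76 ± 0.14 (adjusted p = 0.000164). Mrpl28 fell likewise from 10.40, 10.40 and 10.51 to 9.82, 9.82 and 9.60 (-0.69 ± 0.10, adjusted p = 9.81e-06). Mrpl19 fell from 10.02, 10.29 and 10.11 to 9.47, 9.64 and 9.31 (-0.67 ± 0.10, adjusted p = 8.84e-06). Both encode counterparts of bacterial large subunit proteins, and in all 3 genes the times did not overlap.

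The largest rises in DMSO from 6 to 24 h were in Mrpl52, Mrps27 and Mrpl13. Mrpl52 read 9.68, 9.71 and 9.61 at 6 h and 10.39, 10.52 and 10.26 at 24 h (0.73 ± 0.09, adjusted p = 9.75e-07), and its second probe set also rose by 0.73. Mrpl13 read 12.28, 12.23 and 12.35 at 6 h and 13.00, 12.91 and 12.77 at 24 h (0.61 ± 0.07, adjusted p = 5.49e-07). Mrps27 rose by 0.66 ± 0.20 (adjusted p = 0.00907), but its second probe set changed by -0.87. From 24 to 72 h 9 members rose (background 17.2%) and 4 fell (background 17.1%), which is 17.8% of members against 34.3% of all genes. Mrpl52 (0.49 ± 0.09, adjusted p = 0.000271), Mrpl14 (0.38 ± 0.10, adjusted p = 0.00491) and Mrpl23 (0.38 ± 0.14, adjusted p = 0.0427) rose most. Mrps15 (-0.48 ± 0.07, adjusted p = 4.44e-05), Mrpl35 (-0.39 ± 0.13, adjusted p = 0.0304) and Mrpl45 (-0.33 ± 0.13, adjusted p = 0.0482) fell most. The calls of Mrpl23, Mrpl35 and Mrpl45 were lost under 12, 6 and 18 of 26 alternatives. Without DMSO 24 h replicate 3 Mrpl23 was at 0.20 and not called and Mrpl45 at -0.51, and with the mean of probe sets Mrps15 was at -0.23. Over all genes 1551 rose and 1544 fell with every array kept. Without DMSO 24 h replicate 3 the members' counts were 2 higher and 8 lower, against 1213 and 1498 of all genes. Without DMSO 72 h replicate 1, 2 or 3 there were 4, 3 and 5 members higher, against 1192, 1176 and 1258 of all genes. Lower were then 2, 2 and 1 members, against 1285, 1281 and 1202. Without DMSO 24 h replicate 1 or 2, or with array medians aligned, 1 member was lower, against 1251, 1248 and 1201 of all genes. The DMSO groups are also the controls of the treatment comparisons, so these values are not independent of them.

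Of 5 mitoribosomal proteins with other names, 2 were higher at 6 h, Gadd45gip1 by 0.42 ± 0.09 (adjusted p = 0.00292) and Aurkaip1 by 0.32 ± 0.09 (adjusted p = 0.0181, a call lost without AA 6 h replicate 3), and 0 were called at 72 h. In DMSO from 6 to 24 h 1 of the 5 rose (background 28.3%) and 3 fell (background 30.5%). Beside the counts of this list and those below, 12.1% of all genes were called higher and 12.4% lower at 6 h. At 72 h these shares were 27.4% and 19.8%. Of 11 mitochondrial translation factors 0 were called at 6 h and 2 were lower at 72 h: Mrrf, the ribosome recycling factor, at -0.69 ± 0.11 (adjusted p = 5.8e-05) and Gfm1, an elongation factor, at -0.49 ± 0.08 (adjusted p = 4.69e-05). Of 23 assembly factors 3 were higher and 3 lower at 72 h, and 1 higher and 3 lower at 6 h. Mterf3, which restrains mitochondrial transcription and aids assembly, rose by 0.73 ± 0.07 at 72 h (adjusted p = 2.65e-08). Mettl15, a methyltransferase for the small subunit RNA, was at -3.42 ± 0.25 (adjusted p = 1.12e-09), from 5.70 in DMSO to 2.28 in AA, near the floor of the method.

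Of 15 genes that charge mitochondrial tRNAs, 3 were higher at 6 h (background 12.1%). At 72 h 3 were higher (background 27.4%) and 3 lower (background 19.8%). Fars2, the phenylalanine enzyme, was at -3.18 ± 0.11 (adjusted p = 4.68e-14), from 8.10 to 4.93. Gatc, part of the enzyme that makes glutaminyl-tRNA, rose by 1.11 ± 0.21 (adjusted p = 0.000204) and Gars1 by 1.06 ± 0.09 (adjusted p = 6.53e-09). With the mean of its probe sets Gars1 was at 0.21 and not called. Of 20 genes of mitochondrial DNA expression, 4 rose and 2 fell at 72 h, among them Polrmt, the RNA polymerase, at 0.90 ± 0.20 (adjusted p = 0.00127) and Lrpprc, which stabilises mitochondrial messages, at -0.64 ± 0.08 (adjusted p = 2.06e-06). Of 10 regulators, 1 was higher and 4 lower at 6 h. Gabpa, a GABP subunit, at -0.55 ± 0.19 (adjusted p = 0.0373), Nrf1 at -0.46 ± 0.15 (adjusted p = 0.0283), Yy1 at -0.26 ± 0.07 (adjusted p = 0.0125) and Max at -0.24 ± 0.08 (adjusted p = 0.0372) fell, and Hcfc1 rose by 0.48 ± 0.09 (adjusted p = 0.00116). Without AA 6 h replicate 3 the calls of Gabpa (then -0.28), Nrf1 and Yy1 were lost. Over the 26 alternatives these calls were lost under 8, 8 and 5, and with the mean of probe sets Nrf1 was at -0.26 and Yy1 at -0.05. The call of Max was not followed under the alternatives. At 72 h 3 regulators were higher and 2 lower, with Gabpb1 at 0.53 (adjusted p = 0.00835), Pprc1 at 0.27 (adjusted p = 0.0264), Myc at -0.42 (adjusted p = 0.0353) and Yy1 at -0.19 (adjusted p = 0.0311). The 72 h calls of Pprc1, Myc and Yy1 were lost under 4, 7 and 9 of 26 alternatives. With the mean of probe sets Yy1 was at -0.005 at 72 h. Esrra, a nuclear receptor for mitochondrial genes, rose by 1.62 ± 0.11 at 72 h (adjusted p = 6.92e-10).

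Counts for 3 other families of protein complexes stand beside those of the members. Of all genes 12.1% were called higher and 12.4% lower at 6 h, and 27.4% and 19.8% at 72 h. Of 76 oxidative phosphorylation genes 18 were higher and 0 lower at 6 h (median 0.12), of 36 proteasome genes 14 and 0 (median 0.17), and of 42 cytosolic ribosomal protein genes 1 and 0 (median 0.05). At 72 h cytosolic ribosomal protein genes stood at 3 higher and 30 lower (median -0.23), proteasome genes at 20 higher and 0 lower (median 0.26), and oxidative phosphorylation genes at 8 higher and 18 lower (median -0.02), beside 10 higher and 13 lower for the members. Differences between families were not tested.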

How the data were processed

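Expression was measured on 18 Affymetrix rat arrays. The authors' deposited values are log2 expression, 1 for each of 31099 probe sets and array; GCRMA is named in the submitters' processing notes, while its version and settings are not given in the sources here. GCRMA draws weak probe sets to a low floor (lowest value 0.916), so folds against levels near it depend on the background model. Precision is set by having 3 arrays a group.

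Of these probe sets 57 were controls, 9780 had no symbol in the platform annotation, 436 had several and 20826 had 1, of which 20758 were matched to current names in RefSeq GRCr8. A gene was fitted where 3 or more arrays read log2 4 or above (9015 of 14217), in limma 3.58.1 under R 4.3.3, with 6 group means, empirical Bayes with an intensity trend (12 residual and 7.27 prior degrees of freedom) and Benjamini-Hochberg adjustment over all genes in each of 7 comparisons, called at 0.05. The fit was tested on simulated data.

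The members and lists were chosen with earlier results of these data known. Named by rule were the 6 largest non-overlapping changes each way in treatment comparisons, the 3 largest each way between times, 12 genes whatever their test, the members with the highest and lowest mean, Cdkn1a, and genes from up to 3 called each way per list. Mrps36, in that rule, is not analysed here. Other called members, Max, Ndufb5 and Ppp1r10 were named after their values were seen. Same-numbered AA and DMSO arrays correlated in their deviations at -0.16 to 0.16, with 1 of 9 pairs above 0.1, so numbers were not taken as pairs. Alternatives were other scalings, filters, probe set rules, priors and sample sets, a replicate block, and leaving out each array.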

Additional observations from a re-analysis of the deposited data

Results flagged for a closer look

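The AA effect differed between 72 h and 24 h, by limma's test of the difference itself, in 18 members. This was 24.7% of the members, below the 32.4% of all genes. It was lower at 72 h in Mrps28 (-1.89 on the log2 scale), Mrpl48 (-0.78), Mrpl23 (-0.66), Mrpl52 (-0.57), Mrps33 (-0.53), Mrpl44 (-0.48), Mrpl30 (-0.48), Mrpl20 (-0.45), Mrpl14 (-0.39), Mrpl27 (-0.35) and Mrpl32 (-0.29). It was higher in Mrpl16 (0.31), Mrps30 (0.34), Mrps18b (0.45), Mrps2 (0.51), Mrpl35 (0.73), Mrpl47 (0.84) and Mrpl38 (1.48). Mrpl14 and Mrpl16 had such a difference without being called at 72 h itself. The differences of Mrps28, Mrpl48, Mrpl23, Mrpl38, Mrpl47 and Mrpl35 were followed singly and stayed called under all 26 alternatives. Those of the other members were not followed singly. In DMSO 24 h Mrpl14 read 9.32, 9.34 and 9.01 and Mrpl32 11.31, 11.43 and 11.09. Replicate 3 of that group had the lowest mean deviation of the members, at -0.221.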

How the results depend on the processing

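The members' 6 h counts moved most. Higher at 6 h went from 17 to 28 with array medians aligned and 2 with only the arrays compared, and from 4 to 20 leaving out each array. Over all genes the count went from 1091 to 1706 with array medians aligned and to 293 with only the arrays compared. Lower at 6 h went from 1 to 0 with aligned medians, no intensity trend, only the arrays compared or a replicate block, and 0 to 1 leaving out arrays. In DMSO from 24 to 72 h, lower went from 4 to 1 with aligned medians and 2 with no filter. Over all genes this count went from 1544 to 1201 and 1396. Higher at 72 h went from 10 to 6 with the mean of probe sets, and over all genes from 2472 to 2236. Leaving out each array gave 6 to 14 higher and 8 to 15 lower at 72 h. For the AA effect at 72 h minus 24 h it gave 4 to 9 higher and 8 to 14 lower, for 24 h minus 6 h 0 to 1 lower (1 without DMSO 6 h replicate 1), for DMSO 24 h against 6 h 8 to 12 higher and 21 to 33 lower, and for DMSO 72 h against 24 h 2 to 11 higher and 1 to 8 lower. The replicate block changed no other count by over 1.5 times (16 higher at 6 h, 10 higher and 13 lower at 72 h). The cause of these shifts was not tested.

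Of 2988 alternatives for 115 single-gene values, 2717 kept direction and side of the threshold, 242 lost the call, 3 gained it and 26 changed sign, 1 of them in a called gene. Kars1, a lysyl-tRNA synthetase called higher at 6 h, was at -0.10 with the mean of probe sets. With aligned medians Mrps30 and Mrpl41 at 6 h were at 0.051 and 0.031 and Mrpl13 at 24 h at 0.0065; with equalised quantiles Mrpl3 at 72 h was at -0.0057. Leaving out each array moved uncalled values across 0. At 6 h these were Mrps30 (-0.079 to 0.038), Mrpl41 (-0.089 to 0.0074) and Mrpl3 (-0.063 to 0.19). At 24 h they were Mrpl58 (-0.080 to 0.097), Mrps18a (-0.054 to 0.093), Mrps18b (-0.079 to 0.12), Mrps18c (-0.22 to 0.038), Mrps34 (-0.037 to 0.17), Mrpl38 (-0.51 to 0.0079) and Mrpl13 (-0.093 to 0.025). At 72 h they were Mrpl12 (-0.00016 to 0.14), Mrpl58 (-0.16 to 0.0083), Mrps12 (-0.076 to 0.025), Mrpl3 (-0.011 to 0.053) and Mrpl13 (-0.085 to 0.00082).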
